A study of Mus musculus with 38 samples.

Results

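Gluconeogenesis is the making of glucose in the liver from lactate, amino acids and glycerol. The 7 genes described here were the rows of the deposited count table whose gene symbol named an enzyme or transporter of this route or its coactivator, 7 of 21954 genes in all, and their levels were followed across 13 groups of mouse liver. Pyruvate carboxylase (Pcx) makes oxaloacetate from pyruvate inside mitochondria, and phosphoenolpyruvate carboxykinase turns oxaloacetate into phosphoenolpyruvate, with a cytosolic form encoded by Pck1 and a mitochondrial form encoded by Pck2. Fructose-1,6-bisphosphatase (Fbp1) removes a phosphate further along the route. The transporter encoded by Slc37a4 then carries glucose 6-phosphate into the endoplasmic reticulum, where glucose-6-phosphatase (G6pc) releases free glucose. Ppargc1a encodes PGC-1alpha, a coactivator of transcription. In textbook accounts of the liver, glucagon acting through the cAMP-responsive factor CREB raises transcription of Pck1, G6pc and Ppargc1a in fasting, and insulin acting through the forkhead factor FOXO1 lowers it after a meal.

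Polyadenylated liver RNA of wild-type female C57BL/6 mice was sequenced in 38 libraries. Calorie-restricted mice (CR) and mice fed ad libitum (AL) were sampled at 0, 6, 14 and 22 h and fasted mice (F) at 6, 14 and 22 h. The CR groups held 2, 3, 3 and 4 libraries in order of time, each F group 3, and the AL groups 3, 2, 3 and 3. Livers of CR mice after a missed meal (CRmm) and of fed CR mice (CRfed), both labelled as zeitgeber time 18, gave 3 libraries each. No group carried a gene change. The zero point of the hours is not labelled, and neither is how much food was withheld or whether replicates were separate animals, so p-values measure the spread between samples, which may be technical. The labels give ages of 5 to 44 months that climb along the sample list without any age in common between groups, so age, if correctly labelled, and group cannot be told apart. A name such as CR_22h 3 stands for the group and its replicate number.

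All 7 genes passed the filter on low counts and were tested in every comparison. Levels of a gene are in CPM, its expected counts relative to the scaled library size, and levels of different genes are compared only on the deposited length-corrected scale, a rescaled TPM called signal below. Fold changes are on the log2 scale, first-named group over second, with a standard error (SE) from the fit. A gene was called when the adjusted p of the edgeR quasi-likelihood F test, taken over 13786 tested genes, lay below 0.05. Comparisons that use the same libraries are not independent of each other. Overlap between the libraries of 2 groups was looked up for the members only, so the share of all genes without overlap is not known.

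The library totals lay between 17131292 and 30152277 expected counts. The summed signal of 6 hepatocyte markers was high in every group (69853 to 83395 in F_14h and 112654 to 114764 in AL_14h, for example), while kidney proximal tubule markers were at or near 0. Over all genes, 6 libraries correlated better with another diet of their own time than with their own group (CR_6h 3, CR_14h 3, CR_22h 3, AL_0h 3, AL_6h 1 and AL_14h 2). The clock genes of 7 libraries matched another time better than their own (CR_0h 1, AL_0h 1, AL_0h 2, AL_0h 3, AL_22h 2, CRfed 1 and CRfed 3). In AL_0h 2 and AL_22h 2 the clock genes correlated negatively with the other libraries of their time, at -0.70 and -0.95. In bulk tissue, fewer cells of a type and less RNA per cell cannot be told apart.

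The promoters of Pck1, G6pc and Ppargc1a are shown because these 3 genes were the members called both in fasted and in calorie-restricted livers at 22 h. Each run is the 250 bases before the transcription start given by RefSeq on GRCm38.p6, read 5′ to 3′ on the strand of the gene, at chr2:173152823-173153072 (plus strand) for Pck1, chr11:101367466-101367715 (plus strand) for G6pc and chr5:51567726-51567975 (minus strand) for Ppargc1a. Capitals mark matches, on either strand, to the core TGACG of the CREB site, the forkhead motif TGTTTAC, the insulin response core TGTTTTG or the E-box CACGTG.
Pck1: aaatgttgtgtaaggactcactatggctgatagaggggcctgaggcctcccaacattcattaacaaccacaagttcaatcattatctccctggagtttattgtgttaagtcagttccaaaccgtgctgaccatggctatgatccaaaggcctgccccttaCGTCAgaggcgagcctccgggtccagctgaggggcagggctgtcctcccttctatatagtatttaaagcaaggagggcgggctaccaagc
G6pc: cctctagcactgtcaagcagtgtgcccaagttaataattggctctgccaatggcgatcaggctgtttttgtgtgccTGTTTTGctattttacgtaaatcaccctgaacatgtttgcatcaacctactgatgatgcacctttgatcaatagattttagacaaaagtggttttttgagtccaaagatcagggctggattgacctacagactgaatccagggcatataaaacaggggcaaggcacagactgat
Ppargc1a: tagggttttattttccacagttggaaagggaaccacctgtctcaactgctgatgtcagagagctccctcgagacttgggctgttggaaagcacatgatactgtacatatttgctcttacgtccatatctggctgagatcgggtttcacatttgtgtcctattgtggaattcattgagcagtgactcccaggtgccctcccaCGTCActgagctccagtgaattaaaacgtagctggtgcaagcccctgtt
The TGACG core was found at base -90 before the Pck1 start and at base -49 before the Ppargc1a start, each time on the opposite strand as CGTCA, and 17.8% of 32851 promoter windows of the same length hold it. G6pc held TGTTTTG at base -174, which 5.56% of all windows hold. TGTTTAC, present in 3.17% of all windows, and CACGTG, present in 6.02%, did not occur in these 3 windows, and no searched motif overlapped another. All 7 members matched the RefSeq table, with 3 start sites for Slc37a4 and 2 for Pcx. TGACG was also found before 2 starts of Slc37a4, TGTTTTG before Pck2 at base -159, and CACGTG before 1 start of Pcx at base -248, while the Fbp1 window held none of the 4 motifs. A match describes letters in the window, not a bound site.

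By the GENCODE vM21 annotation on the same assembly, Pck1 lies on chromosome 2 (173153048 to 173159273, plus strand), G6pc on chromosome 11 (101367561 to 101377903, plus), Ppargc1a on chromosome 5 (51454250 to 51567726, minus), Pcx on chromosome 19 (4510472 to 4621752, plus), Slc37a4 on chromosome 9 (44396852 to 44402968, plus), Fbp1 on chromosome 13 (62864753 to 62888282, minus) and Pck2 on chromosome 14 (55540266 to 55551242, plus). The annotated Pck1 and G6pc spans start upstream of the RefSeq starts used for the windows above, and the Ppargc1a span meets its window at base 51567726. Lrfn4 overlaps Pcx on the opposite strand and the antisense gene Gm10876 overlaps Pck2. These overlaps are of whole gene spans, introns included, and shared exons were not looked for. The libraries did not keep strand, so reads from any shared exon could not be told apart by strand.

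Per transcript length, Pck1 and Fbp1 were the most abundant members and Ppargc1a and Pck2 the scarcest. Mean signal over the groups ran from 225 to 3382 for Pck1, from 901 to 1492 for Fbp1, from 64.1 to 393 for G6pc, from 128 to 291 for Pcx and from 77.2 to 208 for Slc37a4. It ran from 1.14 to 6.01 for Ppargc1a and from 1.28 to 2.37 for Pck2. The spread over groups had another order. In log-scale group means of CPM the highest group exceeded the lowest 13.5-fold for Pck1 (CR_22h and AL_6h), 6.64-fold for G6pc (CRmm and CR_14h), 4.16-fold for Ppargc1a (F_14h and AL_22h), 2.83-fold for Slc37a4 (CRfed and AL_6h), 2.14-fold for Pcx (F_22h and AL_22h), 1.81-fold for Pck2 (CR_22h and F_6h) and 1.62-fold for Fbp1 (CRmm and F_14h). Among 8463 genes of at least 10 CPM in a group, the range of Pck1 stood at the 98.0th percentile and that of Fbp1 at the 20.7th.

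**Figure D1:**
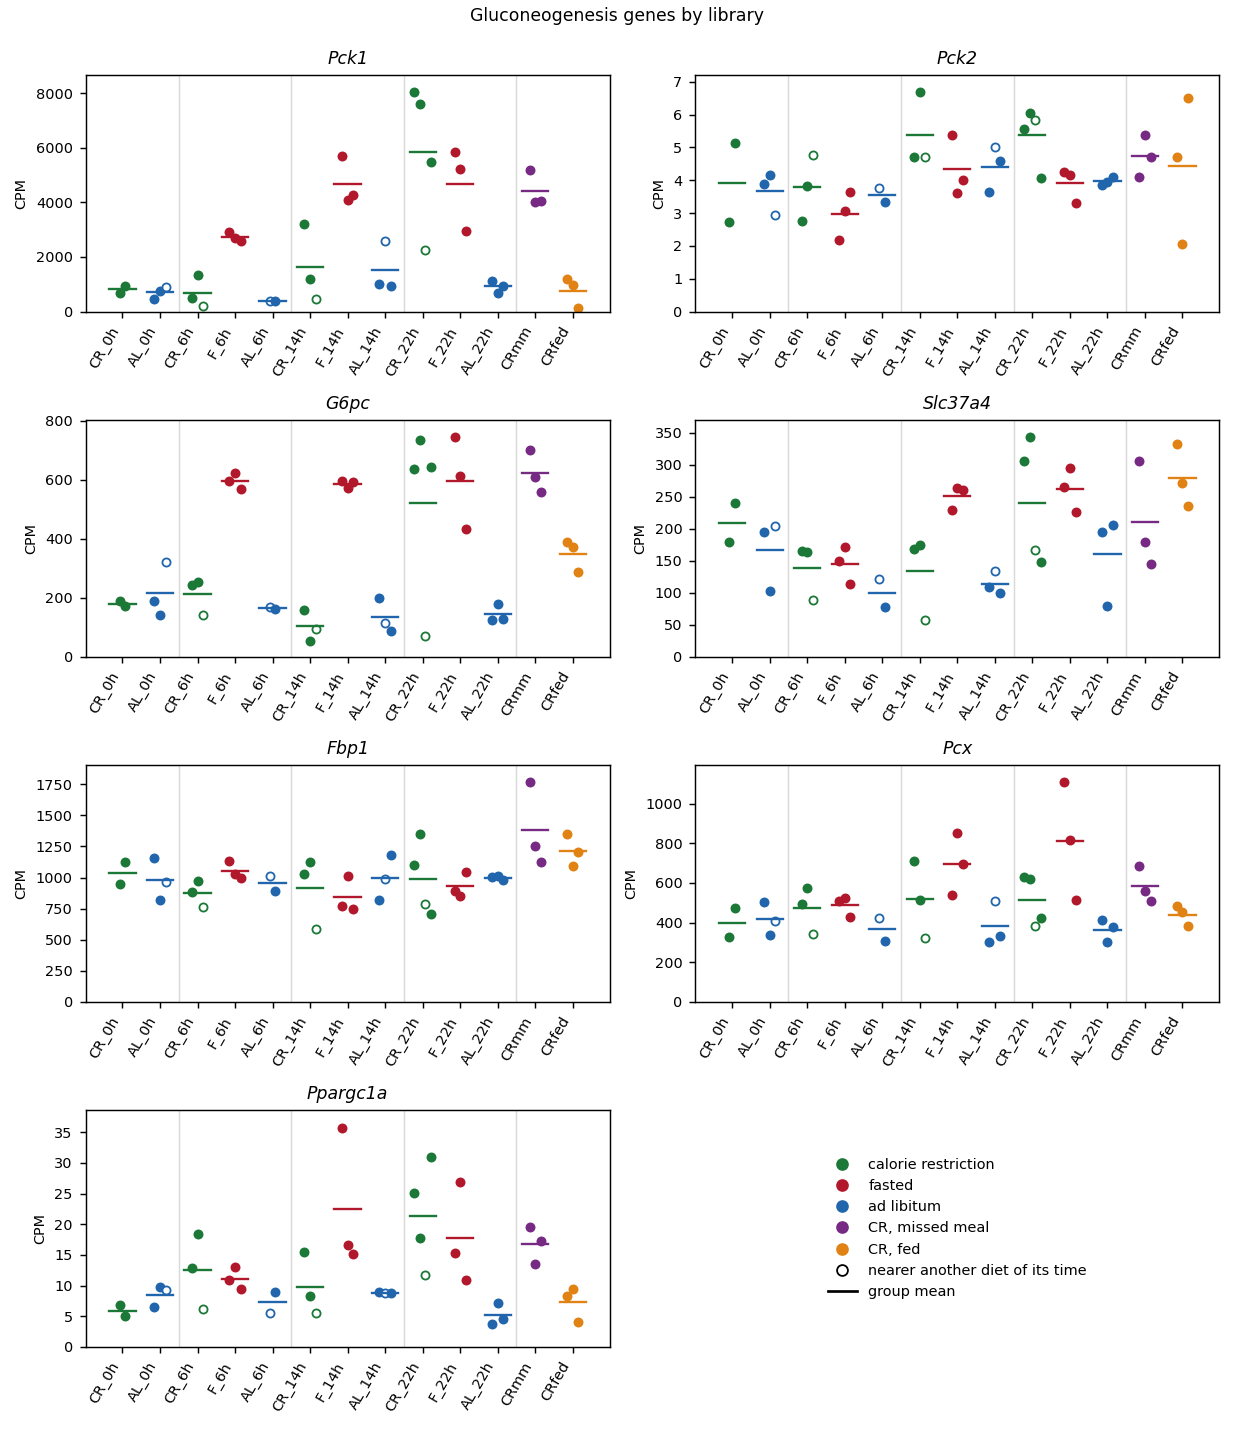
CPM of the 7 genes (linear axes from 0) in each of 38 libraries, by diet and time; points are libraries, bars are group means, and open points are the 6 libraries that correlated better with another diet of their time. Pck1 and G6pc stand high in the 3 fasted groups, CR_22h and CRmm, and Ppargc1a in F_14h, CR_22h, F_22h and CRmm, with CR_22h 3 low for G6pc at 70.3 CPM.

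Fasted livers carried more RNA of several of these genes than ad libitum livers. At 6 h Pck1 passed the test, at 14 h G6pc, Ppargc1a, Slc37a4 and Pcx did, and at 22 h G6pc, Pck1, Ppargc1a and Pcx. Fbp1 and Pck2 were not called at any time. The comparison asks how fasted livers differ from ad libitum livers of the same labelled hour.

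At 6 h, Pck1 had 2927, 2707 and 2601 CPM in F_6h, against 391 and 387 CPM in AL_6h. The 3 fasted libraries lay far above both ad libitum ones, a fold change of 2.82 ± 0.76 (adjusted p = 0.0402). G6pc had 595, 623 and 570.2 CPM in F_6h, against 168 and 163 CPM in AL_6h, also without overlap, at 1.85 ± 0.54 with an adjusted p of 0.0621. Thus 1 of 7 members was called, where 2.34% of all genes were, and the median fold change was 0.54 for the members and -0.02 for all genes. With 2 libraries in AL_6h the calls were fragile: the Pck1 call was lost without any 1 of the 5 libraries (adjusted p between 0.0639 and 0.339), while its fold change stayed between 2.77 and 2.86. Without the 6 libraries nearer another diet, Pck1 had an adjusted p of 0.0700 and G6pc one of 0.0264. The 6 pericentral hepatocyte markers summed to 6919 to 7772 in F_6h, against 3206 to 6003 in AL_6h, and the 6 periportal ones to 1797 to 1981 in F_6h, against 1206 to 1639 in AL_6h. The 3 erythroid markers summed to 1602 to 2452 in F_6h, against 958 to 1517 in AL_6h, and the 5 cholangiocyte markers to 14.2 to 28.9 in F_6h, against 29.3 to 37.6 in AL_6h. None of these genes was called, and their part in the Pck1 change was not tested.

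At 14 h the G6pc levels were nearly the same in the fasted livers, with 595, 574 and 594 CPM in F_14h, against 198, 115 and 86.6 CPM in AL_14h. The groups did not overlap and the fold change was 2.14 ± 0.47 (adjusted p = 0.00154). Pck1 had 5694, 4078 and 4285 CPM in F_14h, against 1009, 2597 and 938 CPM in AL_14h. Its fold change of 1.63 ± 0.62 missed the threshold (adjusted p = 0.0526), and AL_14h 2, which correlated better with CR_14h, was the highest ad libitum library; without it the fold change was 2.27 (adjusted p = 0.0192).

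Ppargc1a had 35.8, 16.6 and 15.2 CPM in F_14h, against 8.89, 8.77 and 8.83 CPM in AL_14h, a rise of 1.35 ± 0.42 (adjusted p = 0.0178). The 3 ad libitum values were almost equal, and F_14h 1 stood well above the other libraries of its group. Slc37a4 rose by 1.13 ± 0.38 (adjusted p = 0.0281), with 228, 263 and 260.1 CPM in F_14h, against 109, 134 and 100.1 CPM in AL_14h. Pcx had 537, 850.1 and 694 CPM in F_14h, against 304, 507 and 334 CPM in AL_14h, a rise of 0.86 ± 0.29 (adjusted p = 0.0270). None of these 3 genes overlapped between the groups. In all, 4 of 7 members rose, with 24.5% of all genes called in either direction, and the median was 1.13 for the members and -0.04 for all genes.

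The smaller changes at 14 h depended on single libraries. Ppargc1a was no longer called without AL_14h 1, AL_14h 3 or F_14h 1 (without F_14h 1, 0.85 and adjusted p = 0.178). Slc37a4 was not called without AL_14h 1, AL_14h 3, F_14h 2 or F_14h 3 (adjusted p up to 0.107), and Pcx without the same 4 libraries (adjusted p up to 0.126). Fold changes of all genes rose with transcript length in this comparison (Spearman's rho across genes 0.45), and Ppargc1a and Pcx lie at the 92.0th and 77.7th percentile of effective length. With that trend removed, Ppargc1a was at 0.91 (adjusted p = 0.0924) and Pcx at 0.61 (adjusted p = 0.135), while G6pc and Slc37a4 stayed called. Other comparisons also held a length trend, among them F_22h against AL_22h (0.41), CRmm against F_22h (-0.43) and CRfed against CR_22h (-0.29). The 6 sinusoidal endothelium markers had a summed signal of 96.6 to 113 in F_14h, against 32.3 to 84.8 in AL_14h, with 5 of the 6 called higher, and the 6 hepatocyte markers of 69853 to 83395 in F_14h, against 112654 to 114764 in AL_14h. Their part in these changes was not tested.

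At 22 h, Pck1 had 5833, 5222 and 2960 CPM in F_22h, against 1120, 677 and 953 CPM in AL_22h, a rise of 2.35 ± 0.63 (adjusted p = 0.0151). G6pc had 745, 613 and 435 CPM in F_22h, against 126, 178 and 129 CPM in AL_22h, a rise of 2.05 ± 0.47 (adjusted p = 0.00514). Ppargc1a had 15.3, 26.9 and 11.0 CPM in F_22h, against 3.68, 7.23 and 4.5 CPM in AL_22h, a rise of 1.78 ± 0.42 (adjusted p = 0.00653). Every fasted library lay above every ad libitum one for the 3 genes.

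Pcx had 1107, 814 and 513 CPM in F_22h, against 413, 304 and 377 CPM in AL_22h, a rise of 1.16 ± 0.29 (adjusted p = 0.00875). Slc37a4 had 266, 294 and 227 CPM in F_22h, against 195, 79.7 and 205 CPM in AL_22h, at 0.71 ± 0.38 with an adjusted p of 0.221. AL_22h 2, the low library for Slc37a4, was one of the libraries with negatively correlated clock genes. Of the 7 members 4 rose, against 11.5% of all genes called in either direction, with medians of 1.16 for the members and -0.03 for all genes. The Pck1 call was lost without AL_22h 2, AL_22h 3 or F_22h 1 (adjusted p up to 0.0629), that of Pcx without F_22h 1 (0.87, adjusted p = 0.0928) and that of Ppargc1a without F_22h 2 (1.37, adjusted p = 0.0574). Without the libraries whose clock went against their time, Pck1 and Pcx had adjusted p of 0.0502 and 0.0618. The 4 pancreas markers summed to 2.17 to 5.97 in F_22h, against 9.46 to 18.9 in AL_22h, and their part was not tested.

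The size of the fasting effect was also tested against time. No member was called for a difference of the fasted-to-ad-libitum change between 6, 14 and 22 h in edgeR, with 0.0653% of all genes called and none of the 7 members at an unadjusted p below 0.05 in edgeR or DESeq2. Within the fasted groups alone, 0 members changed over time (2.86% of all genes), with 1 member below an unadjusted 0.05 in edgeR, 3 in DESeq2 and 0 called by DESeq2. The fasted G6pc means were 596 ± 26.3, 588 ± 11.8 and 597 ± 156 CPM (SD, n = 3 each) at 6, 14 and 22 h.

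**Figure D2:**
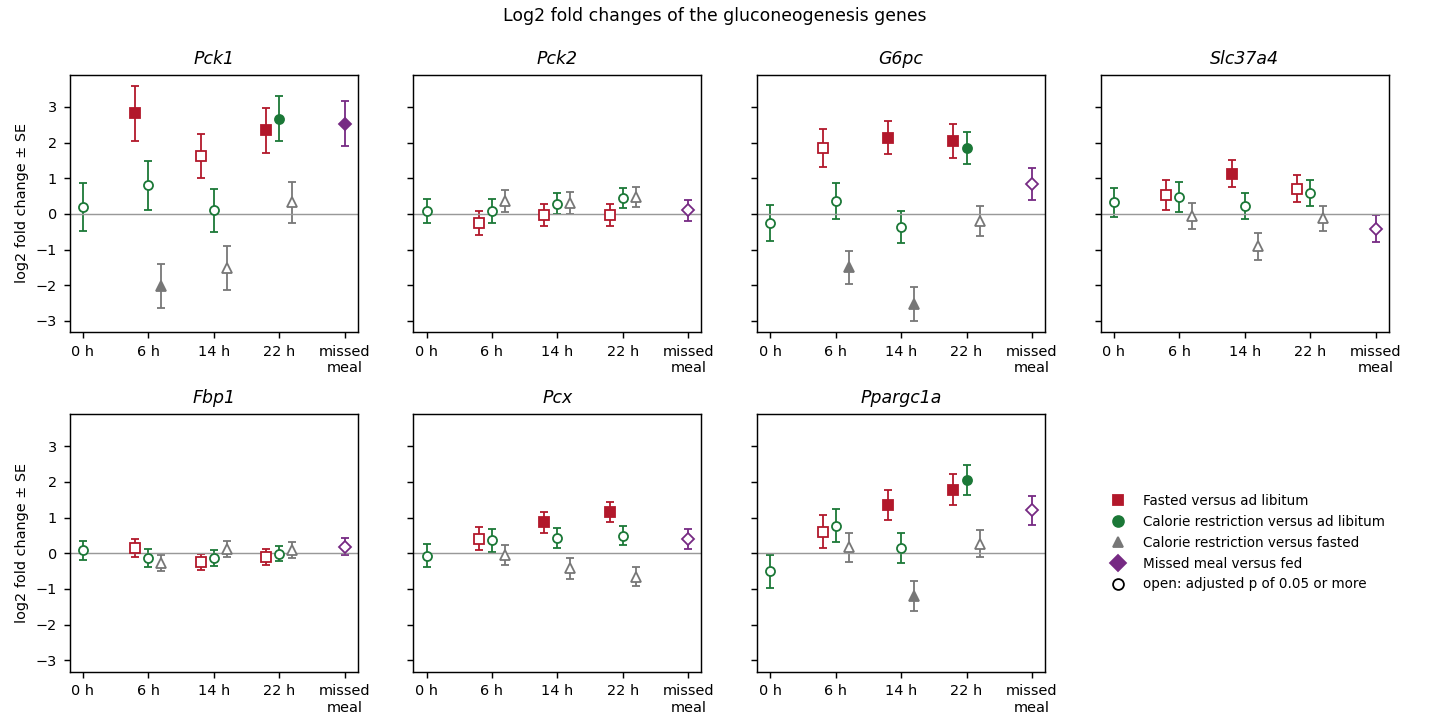
Log2 fold changes with SE of each gene, by time and comparison, as first-named over second-named group; filled symbols had an adjusted p below 0.05 in edgeR. Fasted over ad libitum values lie above 1.6 for Pck1 and G6pc at each time, calorie-restricted over ad libitum values reach that height at 22 h, and Fbp1 and Pck2 stay near 0.

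At 22 h, calorie-restricted livers carried more Pck1, G6pc and Ppargc1a RNA than ad libitum livers. At 0, 6 and 14 h no member passed the test, and in edgeR no member was called for a difference of this effect between the times (adjusted p = 0.109 for Ppargc1a, 0.193 for G6pc and 0.330 for Pck1). The comparison asks how the restricted feeding regimen shifts the liver over its daily course.

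Pck1 had 8039, 7587, 2264 and 5487 CPM in CR_22h, against 1120, 677 and 953 CPM in AL_22h. The 4 restricted libraries all lay above the ad libitum ones, a rise of 2.67 ± 0.62 (adjusted p = 0.0131). Ppargc1a had 25.0, 17.8, 11.7 and 30.9 CPM in CR_22h, against 3.68, 7.23 and 4.5 CPM in AL_22h, a rise of 2.05 ± 0.41 (adjusted p = 0.00463), again without overlap.

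G6pc had 636, 735 and 645 CPM in 3 of the CR_22h libraries and 70.3 CPM in CR_22h 3, against 126, 178 and 129 CPM in AL_22h. CR_22h 3 lay below every ad libitum library, and the groups overlapped, at 1.85 ± 0.45 (adjusted p = 0.0162). This library correlated better with AL_22h than with its own group over all genes. Without it G6pc was at 2.22 ± 0.32 (adjusted p = 9.34e-05), Pck1 at 2.94 ± 0.63 and Ppargc1a at 2.26 ± 0.41.

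Thus 3 of 7 members rose at 22 h, with 4.88% of all genes called in either direction, and the medians were 0.59 for the members and 0.00 for all genes. Slc37a4 (0.59 ± 0.35), Pcx (0.49 ± 0.27), Pck2 (0.44 ± 0.28) and Fbp1 (-0.02 ± 0.22) were not called. The Pck1 call was lost without AL_22h 2 (2.50, adjusted p = 0.0616) or AL_22h 3 (2.73, adjusted p = 0.0559), and that of G6pc without AL_22h 1, AL_22h 3 or CR_22h 1 (adjusted p up to 0.0781). On the rescaled signal with limma, G6pc was at 1.44 (adjusted p = 0.0696). Over 13 alternative settings of the processing, the G6pc call held in 8. The Ppargc1a call held in each of these fits. The 6 Kupffer cell markers had a summed signal of 76.4 to 185 in CR_22h, against 201 to 272 in AL_22h, and 2 of the 6 fell. The 4 pancreas markers summed to 2.91 to 8.54 in CR_22h and 9.46 to 18.9 in AL_22h, and the 4 adipocyte markers to 0.158 to 0.748 in CR_22h and 0.0592 to 0.107 in AL_22h, where 2 of the 4 were at 0 in every library. The part of such cells in the rises was not tested.

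At 0 h, 0 of 7 members were called in edgeR or DESeq2 (0.479% of all genes in edgeR), and none had an unadjusted p below 0.05 in either tool. The same held at 6 h, where the share of all genes called was 0%, and at 14 h, where it was 0.0218%. Over all genes, 1483, 568 and 1330 had an unadjusted p below 0.05 in edgeR at 0, 6 and 14 h. Pck1 had 685 and 928 CPM in CR_0h, against 472, 764 and 896 CPM in AL_0h, at 0.18 ± 0.67. At 6 h it had 497, 1340 and 193 CPM in CR_6h, against 391 and 387 CPM in AL_6h, at 0.80 ± 0.69. The libraries of both diets overlapped at each time, and the SEs are wide at this replication.

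At 14 h, Pck1 had 3222, 1196 and 477 CPM in CR_14h, against 1009, 2597 and 938 CPM in AL_14h, at 0.11 ± 0.60. G6pc had 160, 54.8 and 93.6 CPM in CR_14h, against 198, 115 and 86.6 CPM in AL_14h, at -0.37 ± 0.45. In both genes the libraries of the 2 diets were interleaved. Each diet held 1 library nearer the other diet (CR_14h 3 and AL_14h 2), and without the 6 such libraries Pcx was called at 0.96 (adjusted p = 0.0376).

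Whether the restriction effect differed over the 4 times was tested directly. In edgeR no member was called, with 0.442% of all genes called, 3 members below an unadjusted 0.05 and 2 members, G6pc and Ppargc1a, called by DESeq2. Without CR_22h 3, edgeR called both (adjusted p = 0.00463 for G6pc and 0.0484 for Ppargc1a). Within the calorie-restricted groups, 3 of 7 members changed over time, where 20.6% of all genes did: Pck1 (adjusted p = 0.000652), G6pc (adjusted p = 0.00136) and Ppargc1a (adjusted p = 0.0142). Pck1 averaged 807 ± 172 CPM at 0 h (SD, n = 2), 677 ± 594 at 6 h (n = 3), 1632 ± 1424 at 14 h (n = 3) and 5844 ± 2633 at 22 h (n = 4). G6pc averaged 180.0 ± 10.8, 212 ± 62.2, 103 ± 53.1 and 522 ± 304 CPM at the same times. The Ppargc1a call over time was lost without CR_0h 2 (adjusted p = 0.0693) or CR_22h 4 (adjusted p = 0.0600). Within the ad libitum groups no member changed over time in edgeR or DESeq2 (0.276% of all genes in edgeR), and 1 member had an unadjusted p below 0.05 in DESeq2 and 0 in edgeR.

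Set directly against fasted livers of the same time, calorie-restricted livers had less Pck1 and G6pc RNA at 6 h and less G6pc and Ppargc1a RNA at 14 h, and at 22 h no member was called. These comparisons share their libraries with those against ad libitum mice. They ask how a restricted liver differs from one that fasted.

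At 6 h, Pck1 had 497, 1340 and 193 CPM in CR_6h, against 2927, 2707 and 2601 CPM in F_6h, a change of -2.02 ± 0.63 (adjusted p = 0.0460). G6pc had 243, 252 and 140 CPM in CR_6h, against 595, 623 and 570.2 CPM in F_6h, a change of -1.49 ± 0.46 (adjusted p = 0.0441). The groups did not overlap for either gene, nor for Fbp1, which was at -0.27 ± 0.23 (adjusted p = 0.554). The 2 calls of 7, Pck1 and G6pc, stand against 6.8% of all genes. The 6 pericentral hepatocyte markers summed to 4041 to 5601 in CR_6h, against 6919 to 7772 in F_6h, with 3 called lower, and their part was not tested. The G6pc call was lost without any 1 of the 6 libraries (adjusted p from 0.0710 to 0.151), and the Pck1 call without any but CR_6h 2 (adjusted p up to 0.195). Ppargc1a was at 0.16 ± 0.41 at this time, with 12.9, 18.4 and 6.15 CPM in CR_6h, against 10.8, 13 and 9.49 CPM in F_6h, the restricted values enclosing the fasted ones.

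At 14 h, G6pc had 160, 54.8 and 93.6 CPM in CR_14h, against 595, 574 and 594 CPM in F_14h, a change of -2.52 ± 0.48 (adjusted p = 0.000562). This call held without each single library, with fold changes from -2.99 to -2.21. Ppargc1a had 15.5, 8.35 and 5.51 CPM in CR_14h, against 35.8, 16.6 and 15.2 CPM in F_14h, a change of -1.20 ± 0.41 (adjusted p = 0.0416) with overlap. It was lost without CR_14h 2, CR_14h 3 or F_14h 1 (without F_14h 1, -0.70 and adjusted p = 0.329). Fold changes of all genes fell with transcript length here (Spearman's rho -0.37). The Ppargc1a call held in 7 of 13 alternative settings and was lost with the length trend removed. Pck1 (-1.52 ± 0.62) and Slc37a4 (-0.91 ± 0.38) had no overlap between the groups and adjusted p of 0.0873 and 0.0932. Without CR_14h 1, Pck1 was at -2.49 (adjusted p = 0.0147). The 2 calls of 7 stand against 17.1% of all genes. The 6 sinusoidal endothelium markers summed to 71.4 to 88.1 in CR_14h, against 96.6 to 113 in F_14h, with 2 called lower, and the hepatocyte markers to 100219 to 122001 in CR_14h, against 69853 to 83395 in F_14h. Their part was not tested.

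At 22 h, 0 of 7 members were called in edgeR or DESeq2, against 9.44% of all genes in edgeR, and 1 member had an unadjusted p below 0.05 in either tool. Pck1 had 8039, 7587, 2264 and 5487 CPM in CR_22h, against 5833, 5222 and 2960 CPM in F_22h, at 0.32 ± 0.57. G6pc was at -0.20 ± 0.42, Ppargc1a at 0.27 ± 0.38 and Pcx at -0.66 ± 0.26. The libraries of the 2 groups overlapped for all 7 genes. An adjusted p above 0.05 does not show equal levels, and Pcx was called without F_22h 3 (-0.89, adjusted p = 0.0418).

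A missed meal under calorie restriction was accompanied by a higher Pck1 level than feeding at the same zeitgeber time. Pck1 had 5202, 3998 and 4062 CPM in CRmm, against 1182, 970.5 and 138 CPM in CRfed, a rise of 2.53 ± 0.64 (adjusted p = 0.00904). The call held without each single library, with fold changes from 2.04 to 3.00. Ppargc1a had 19.5, 13.5 and 17.2 CPM in CRmm, against 8.34, 9.41 and 4.00 CPM in CRfed, at 1.2 ± 0.42 with an adjusted p of 0.0534. G6pc had 703, 611 and 559 CPM in CRmm, against 389, 373 and 286 CPM in CRfed, at 0.84 ± 0.45 (adjusted p = 0.245). Both genes, and Pcx at 0.41 ± 0.28 (adjusted p = 0.390), had no overlap between the groups without passing the threshold.

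Of 7 members 1 rose after the missed meal, against 12.5% of all genes, and the medians were 0.41 for the members and -0.01 for all genes. DESeq2 also called Ppargc1a (adjusted p = 0.0287). Without the 6 libraries nearer another diet, none of them in these groups, the fit also called Ppargc1a (1.19, adjusted p = 0.0255) and G6pc (0.82, adjusted p = 0.0471). Without the libraries whose clock went against their time only CRfed 2 was left in the fed group, its spread taken from the other groups, and Pck1 was at 2.18 (adjusted p = 0.244). The 3 erythroid markers had a summed signal of 9160 to 28407 in CRmm, against 1664 to 4041 in CRfed. The 4 adipocyte markers reached 29.5 in CRfed 1 and were all at 0 in CRfed 2 and CRfed 3. The 6 sinusoidal endothelium markers summed to 124 to 146 in CRmm, against 63.6 to 83.4 in CRfed, and the 6 stellate cell markers to 239 to 297 in CRmm, against 164 to 181 in CRfed. Markers of pericentral hepatocytes, those around the central vein, summed to 9940 to 10669 in CRmm, against 4947 to 6779 in CRfed. The part of these cells in the differences was not tested.

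The missed-meal change was set against the change of fasted over ad libitum livers at 22 h in 1 test. The changes come from groups with different kinds of labelled time and different feeding regimens, which cannot be told apart here. No member was called in edgeR or DESeq2, with 0.885% of all genes called in edgeR, and 1 member had an unadjusted p below 0.05 in edgeR and 2 in DESeq2. For Pck1 the difference of the changes was 0.18 ± 0.85. For G6pc it was -1.21 ± 0.64 (adjusted p = 0.364 in edgeR) and for Slc37a4 -1.13 ± 0.53 (adjusted p = 0.297). Slc37a4 was the member with an unadjusted p below 0.05 in edgeR.

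CRmm, CRfed, CR_22h and F_22h were also compared in pairs, which share libraries. CRmm is labelled by zeitgeber time and CR_22h and F_22h by hours of unlabelled zero, so hour and feeding cannot be told apart. Between CRmm and CR_22h, where 6.3% of all genes were called, and between CRmm and F_22h, where 13.3% were, 0 of 7 members were called in edgeR or DESeq2. In each of these pairs 1 member had an unadjusted p below 0.05 in both tools. Pck1 was at -0.40 ± 0.57 against CR_22h and at -0.08 ± 0.60 against F_22h, and Fbp1 at 0.48 ± 0.21 and 0.57 ± 0.23. Fbp1 had 1765, 1251 and 1127 CPM in CRmm, against 895, 849 and 1043 CPM in F_22h, with no overlap and an adjusted p of 0.0969.

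CRfed had less Pck1 and Ppargc1a RNA than CR_22h, 2 of 7 members against 17% of all genes. Pck1 had 1182, 970.5 and 138 CPM in CRfed, against 8039, 7587, 2264 and 5487 CPM in CR_22h, a change of -2.94 ± 0.63 (adjusted p = 0.00163). Ppargc1a changed by -1.55 ± 0.40 (adjusted p = 0.00687), and neither gene overlapped between the groups. G6pc was at -0.58 ± 0.43 (adjusted p = 0.390), with 389, 373 and 286 CPM in CRfed, against 636, 735, 70.3 and 645 CPM in CR_22h. Without CR_22h 3 it was at -0.94 (adjusted p = 0.0325), and the Ppargc1a call was lost without CRfed 3 (-1.26, adjusted p = 0.0608). The labels give these groups different kinds of time, so the hour cannot be told apart from the meal. Pericentral hepatocyte markers summed to 4947 to 6779 in CRfed, against 6975 to 9886 in CR_22h, and their part was not tested.

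Fed livers thus had low Pck1 beside a middling G6pc level, and the relation of the pair was followed per length. The Pck1 signal over the G6pc signal had a median of 2.39 in CRfed (0.438 to 2.76), below each of the ratios in CRmm (5.95 to 6.72), CR_22h (7.77 to 30.3) and F_22h (6.28 to 7.76). Low medians also occurred in CR_6h (1.91, range 1.28 to 4.81), AL_6h (2.15, 2.11 to 2.19) and AL_0h (2.58, 2.29 to 5.22). The highest median was 18.3 in CR_14h, where G6pc had its lowest mean, followed by 10.4 in CR_22h and 9.86 in AL_14h. The ranges of CR_14h (4.71 to 19.9) and AL_14h (4.66 to 20.4) were nearly the same. The ratio was computed after the values had been seen and is given without a test.

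**Figure D3:**
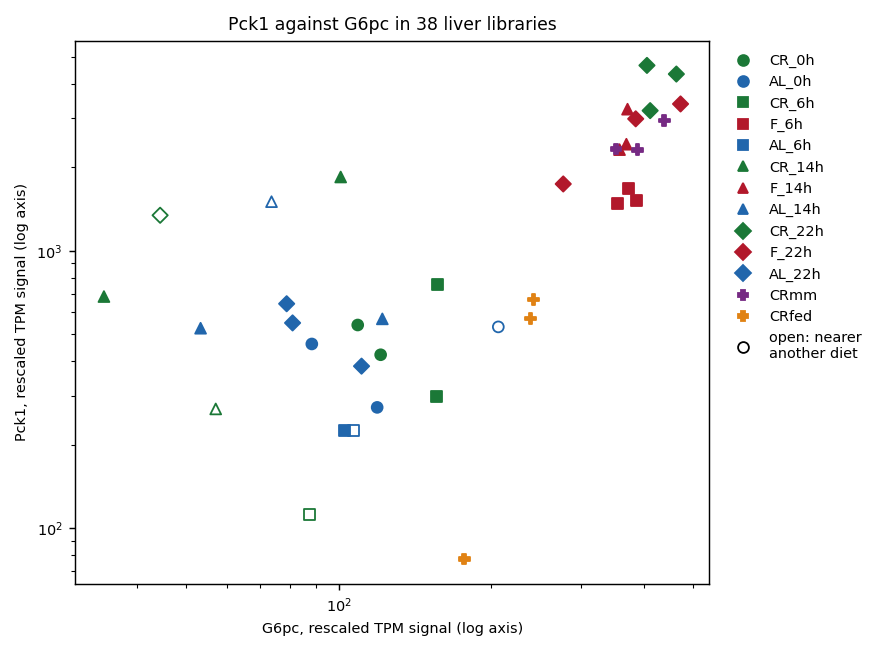
Rescaled TPM signal of Pck1 against that of G6pc in 38 libraries, both axes logarithmic; colour gives the diet and shape the time, with open symbols for the 6 libraries nearer another diet. The fasted, CRmm and CR_22h libraries sit at the upper right except CR_22h 3, at a G6pc signal of 44.4, and CRfed lies to the right at low Pck1.

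Ranked by mean CPM, Pck1 was highest in CR_22h (5844), F_14h (4685), F_22h (4672) and CRmm (4420), then F_6h (2745), CR_14h (1632), AL_14h (1514), AL_22h (917), CR_0h (807), CRfed (763), AL_0h (711), CR_6h (677) and AL_6h (389). Of its 12 neighbouring pairs 11 overlapped between libraries, the exception being CRmm over F_6h. G6pc ran from CRmm (624) through F_22h (597), F_6h (596), F_14h (588), CR_22h (522) and CRfed (349) to AL_0h (216), CR_6h (212), CR_0h (180.0), AL_6h (165), AL_22h (145), AL_14h (133) and CR_14h (103). Of its neighbours 11 of 12 overlapped, the exception being CR_0h over AL_6h. In the other 5 genes all 12 neighbouring pairs overlapped.

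Ppargc1a averaged 22.5 CPM in F_14h, 21.4 in CR_22h, 17.8 in F_22h, 16.7 in CRmm and 12.5 in CR_6h, and between 5.14 (AL_22h) and 11.1 (F_6h) in the other 8 groups. Pcx averaged 812 CPM in F_22h, 694 in F_14h and 584 in CRmm, and between 365 (AL_22h) and 516 (CR_14h) elsewhere. Slc37a4 averaged 279 CPM in CRfed, 262 in F_22h, 251 in F_14h and 241 in CR_22h, and between 99.98 (AL_6h) and 210 (CRmm) elsewhere, so that the highest mean of the transporter was in the fed group. The CRmm over CRfed change of Slc37a4 was -0.41 ± 0.37 (adjusted p = 0.531). Fbp1 averaged 843 (F_14h) to 1381 CPM (CRmm), and Pck2 2.97 (F_6h) to 5.39 CPM (CR_22h). Fbp1 and Pck2 were called in 0 of 14 pairs of groups, against 6 for Pck1, 5 each for G6pc and Ppargc1a, 2 for Pcx and 1 for Slc37a4. Pck2 rested on 41 to 177 expected counts a library, against 3024 to 187408 for Pck1.

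Across the 13 group means of log2 CPM, which share libraries and scaling, the closest pairs of members were Pcx with Ppargc1a and Pck1 with Ppargc1a (Pearson's r 0.83 each) and Pck1 with Pcx (0.77). G6pc had 0.74 with Pcx, 0.71 with Ppargc1a, 0.70 with Pck1 and 0.69 with Slc37a4, while Fbp1 had between -0.15 and 0.31 with the others. Among the 8463 genes of at least 10 CPM in a group, those most like Pck1 were Klhl21 (0.970), Bcl2l11 (0.955) and Osbpl1a (0.953), and those most like G6pc were Cyp3a13 (0.940), Elmod3 (0.939) and Bmp2k (0.936). Ppargc1a was most like Sgms1 (0.936), Cobll1 (0.930) and Zfp36l2 (0.924), and Pcx most like Agpat3 (0.957), Hsd17b4 (0.934) and Itgb3 (0.933). Among the genes most like Slc37a4 were Pdhb (0.917), a subunit of pyruvate dehydrogenase, and Ppp3r1 (0.910). The best values for Fbp1 (Ppcs, 0.901) and Pck2 (Tmem9, 0.897) were lower. These are descriptions over 13 points, each gene being picked from all candidates.

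Among 16 genes of substrate entry and glucose export, 5 rose and 2 fell in F_14h against AL_14h, and 5 rose in F_22h against AL_22h, where 24.5% and 11.5% of all genes were called in either direction. Gpd2, the mitochondrial glycerol 3-phosphate dehydrogenase, rose by 1.79 ± 0.34 at 14 h and 1.61 ± 0.34 at 22 h, and the alanine transaminase Gpt2 by 1.46 ± 0.29 and 1.03 ± 0.28. Tat, the tyrosine aminotransferase, rose by 1.63 ± 0.46 at 14 h, and the amino acid transporter Slc38a2 by 1.5 ± 0.39 at 22 h. In CR_22h against AL_22h, 2 of the 16 rose (4.88% of all genes called), Slc38a2 (1.54 ± 0.38) and the serine dehydratase Sds (1.21 ± 0.34). After the missed meal 3 rose (12.5% of all genes called): glycerol kinase Gk (1.68 ± 0.24), Sds (1.3 ± 0.36) and lactate dehydrogenase Ldha (0.86 ± 0.27). In CR_14h against F_14h, 5 fell and 1 rose (17.1% of all genes called), with Gpt2 at -1.60 ± 0.29.

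The list of reversible steps shared with glycolysis held 11 genes, among them Got1, the cytosolic aspartate transaminase, which is not itself a glycolytic enzyme. Got1 was the sole gene of the list called in fasted against ad libitum livers, where 24.5% (14 h) and 11.5% (22 h) of all genes were called. It rose by 1.38 ± 0.39 at 14 h and 1.49 ± 0.39 at 22 h. It averaged 149 CPM in CR_6h and 669 CPM in F_6h (-2.17 ± 0.40), and 179 CPM in CR_14h and 736 CPM in F_14h (-2.04 ± 0.40). Gpi1, the glucose phosphate isomerase, rose by 1.06 ± 0.30 in CR_22h against AL_22h, where it was the sole gene of the list called.

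Of 6 genes on opposing glycolytic steps, Pklr, the liver pyruvate kinase, fell by 1.76 ± 0.46 at 6 h, 1.60 ± 0.42 at 14 h and 1.74 ± 0.42 at 22 h in fasted against ad libitum livers. It averaged 91.6 CPM in CRmm and 330.1 CPM in CRfed (-1.85 ± 0.43). Pdk4, a kinase that inhibits pyruvate dehydrogenase, averaged 218 CPM in CRmm and 18.5 CPM in CRfed (3.56 ± 0.88), and it rose by 2.79 ± 0.85 in F_22h against AL_22h. Pklr was higher in CR than in F livers at 6, 14 and 22 h, by 1.56 ± 0.42, 1.56 ± 0.42 and 2.06 ± 0.41.

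Of 21 genes of hormone and transcriptional control, 8 rose and 1 fell in F_14h against AL_14h, 6 rose and 2 fell at 22 h, and 8 rose in CR_22h against AL_22h. Of all genes, 24.5%, 11.5% and 4.88% were called in these comparisons in either direction. Irs2, an adaptor of the insulin receptor, averaged 77.0 CPM in CR_22h and 10.2 CPM in AL_22h (2.91 ± 0.58), and 46.8 CPM in F_22h against the same AL_22h libraries (2.20 ± 0.58). Nr4a1, a nuclear receptor induced by cAMP, rose by 2.68 ± 0.73 in CR_22h against AL_22h and by 3.24 ± 0.80 in F_14h against AL_14h. Sik1, a kinase that restrains CREB coactivators, rose by 1.88 ± 0.43 in CR_22h and by 1.56 ± 0.44 in F_22h, both against AL_22h. Creb3l3, a liver factor of fasting metabolism, was the sole gene of the list called in F_6h against AL_6h, at 1.03 ± 0.23. Nr0b2 (SHP), a nuclear receptor that represses transcription, averaged 68.9 CPM in CR_14h and 11.5 CPM in F_14h (2.59 ± 0.49). It went the other way in CR_0h, with 1.89 CPM against 32.1 CPM in AL_0h (-4.13 ± 0.65), where 0.479% of all genes were called. Ppara, the fatty acid receptor, averaged 117 CPM in CRmm and 27.7 CPM in CRfed (2.07 ± 0.35).

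Of 5 paralogs of the members, 4 were tested. Ppargc1b, the closest relative of the coactivator gene, averaged 8.15 CPM in F_6h and 2.83 CPM in AL_6h (1.52 ± 0.38), where Ppargc1a was at 0.61 ± 0.47. It averaged 2.96 CPM in CR_6h against the same F_6h libraries (-1.46 ± 0.33), and 2.29 CPM in CR_14h and 8.69 CPM in F_14h (-1.92 ± 0.34).

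**Figure D4:**
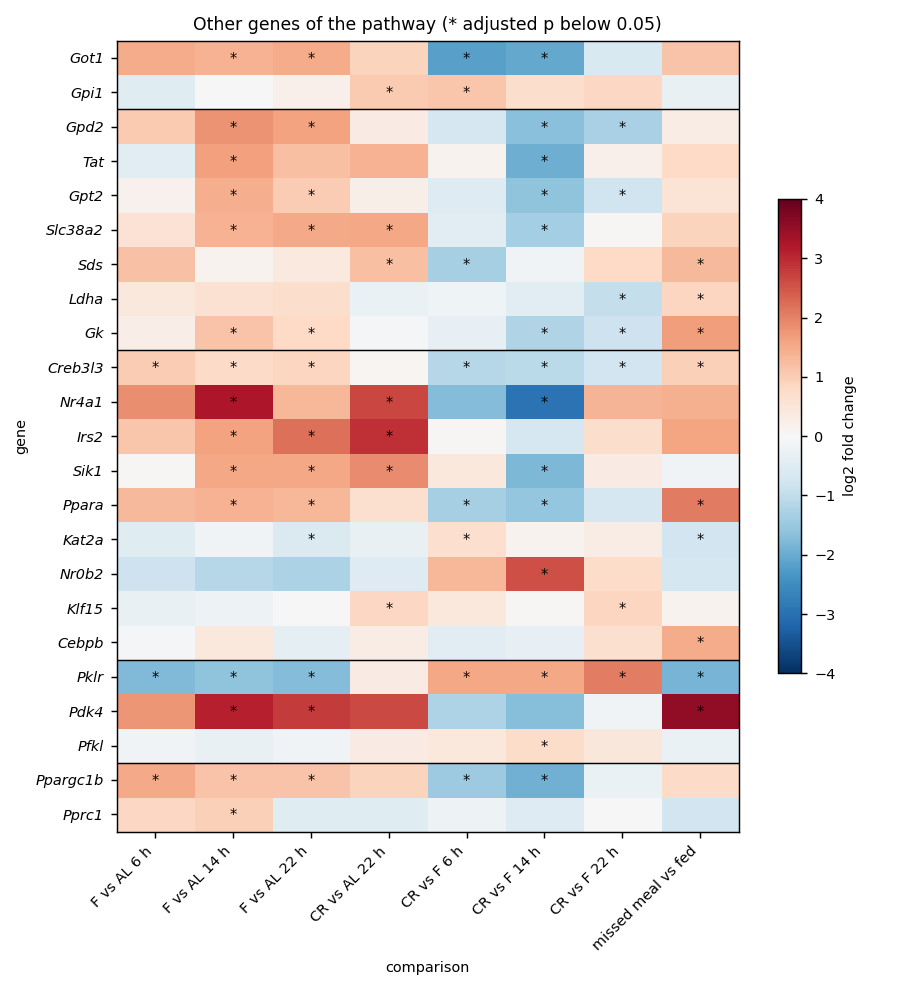
Log2 fold changes (colour, from -4 to 4) of pathway genes outside the 7 members, by comparison, with F for fasted, AL for ad libitum and CR for calorie restriction; stars mark an adjusted p below 0.05 in edgeR and lines part the gene lists. Pklr is lower in fasted than in ad libitum livers at each time (-1.74 at 22 h), and Pdk4 is highest after the missed meal (3.56).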

How the data were processed

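Per the labels' protocols, polyadenylated liver RNA was made into non-directional libraries and sequenced as 150 bp paired reads, and the authors aligned these with Bowtie, with up to 2 mismatches, against Ensembl's protein-coding gene set on GRCm38. RSEM 1.2.3 gave the deposited expected counts. The deposited signal is TPM after rescaling by the authors with EBSeq, as the labels put it, against a possible batch effect that they do not name; its column sums run from 817166 to 1319582, so it is no longer TPM.

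Expected counts of 21954 genes were rounded to whole numbers and fitted in edgeR 4.0.16 (R 4.3.3) with 1 coefficient for each of 13 groups over 38 libraries, after filterByExpr (13786 genes kept) and TMM scaling. Quasi-likelihood F tests were adjusted by Benjamini-Hochberg over all tested genes, and the common dispersion was 0.0785. SE is the absolute fold change over the square root of F. In all, 14 pairs of groups, 3 changes over time and 3 differences of effects were tested. The pathway genes named were the 3 called genes of largest fold change per list and pair with at least 5 CPM in a group; those also named elsewhere follow from this rule. The members and lists were chosen with earlier results of these data known. Closest genes were ranked by Pearson's r over group means, and library checks used correlations of log values within each time and of clock genes between times. Alternatives used DESeq2 1.42.0, limma 3.58.1 on log2(signal + 1), with 0.1 in place of 1, other filters, a replicate block, length-trend removal (lowess span 0.3), compared libraries alone and left-out libraries. The code was tested on simulated data, simulating F_22h against AL_22h over 13580 genes: recovery was 96% at a log2 change of 2 and 52% at 1, and 6.33% of calls were false. Reads carry no molecular identifiers. Promoter windows come from RefSeq. Some genes that entered the fits and list counts are left out of the text and plots.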

Additional observations from a re-analysis of the deposited data

Results flagged for a closer look

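G6pc in calorie-restricted liver at 22 h was flagged because 1 sample stood far from the others: CR_22h 3 had 70.3 CPM, while the other 3 libraries of its group had 636, 735 and 645 CPM. Chance flags about 1 in 20 groups by this rule, and all 7 genes were tried in CR_22h, the one group of at least 4 libraries, so the chance of at least 1 flag is above 1 in 20. Pck1 (2264 CPM), Pcx (380 CPM) and Ppargc1a (11.7 CPM) were also lowest of their group in CR_22h 3 without being flagged. This library correlated better with AL_22h than with CR_22h over all genes, and its clock genes matched 22 h. What sets it apart was not tested.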

How the results depend on the processing

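Of 98 fold changes of members between 2 groups, 19 were called, and 4 of these calls held under every alternative: G6pc in F against AL at 14 and 22 h, G6pc in CR against F at 14 h, and Ppargc1a in CR against AL at 22 h. In the same 14 pairs of groups, from 0% (CR against AL at 6 h) to 24.5% (F against AL at 14 h) of all genes were called. How many calls of all genes held under every alternative was not counted. Over 1862 alternative values, 1754 kept their side of the threshold, 73 lost and 35 gained a call, and 0 calls changed direction; 94 uncalled values changed sign. The cause of the changes was not tested.

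The number of members called, of 7, moved as follows, where only changes of more than 1.5-fold, or to or from 0, are listed. Smaller moves are left out, such as DESeq2 counts of 5 for F against AL at 14 h (4) and 3 for CR against F at 14 h (2). For F against AL at 6 h (1), it was 2 with DESeq2, 2 with the replicate block, 2 with the compared libraries only and 0 on the signal without a minimum. For F against AL it was 2 at 14 h (4) with the length trend removed and 2 at 22 h (4) without the libraries whose clock went against their time. For CR against AL it was 1 at 14 h (0) without the libraries nearer another diet or without both kinds of doubtful library, and 1 at 22 h (3) without those against their time. For CR against F at 6 h (2), it was 1 in all 3 signal fits, without libraries against time, against diet, of negative clock correlation or of both kinds, and with the compared libraries only. For CR against F at 14 h (2), it was 4 with the replicate block and 1 on the signal without a minimum, with the length trend removed, without libraries against time, against diet or of both kinds, and with the compared libraries only. For the missed meal against fed (1), it was 2 with DESeq2, the replicate block or the length trend removed, 0 without libraries against time, and 3 without those against diet, of both kinds, or with the compared libraries only. For CRfed against CR_22h (2) it was 0 without libraries against time. Over time it was 1 in CR (3) and 1 in F (0) with the compared libraries only, and the CR effect over time (0) gave 2 with DESeq2, without libraries against diet or without both kinds.

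Leaving out 1 library at a time gave 0 to 0 calls for F against AL at 6 h, 1 to 5 at 14 h and 2 to 4 at 22 h. It gave 1 to 3 for CR against AL at 22 h, 0 to 1, 1 to 3 and 0 to 1 for CR against F at 6, 14 and 22 h, 1 to 3 for CRfed against CR_22h, and 0 to 2 for the CR effect over time. The left-out sets of negative clock correlation and of both kinds were chosen after seeing the data. The labels name no pairing by replicate number. After group means were taken off, same-numbered libraries correlated at -0.32 to 0.61 over all genes, with medians of 0.02 to 0.06. Whether the numbers mark a shared batch was not tested. No value could be had at 0 h, for the AL change over time or for the CR effect over time without the libraries against their time, which include all of AL_0h. In simulated data of F_22h against AL_22h, with 3 libraries each, a simulated log2 change of 1 was recovered for 52% of such genes; other group sizes were not simulated.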
